A study of Mus musculus with 4 samples.

Results

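The Kruppel-like factor genes *Klf2*, *Klf3*, *Klf4*, *Klf5*, *Klf6*, *Klf9*, *Klf10*, *Klf11*, *Klf13* and *Klf15* were followed through 4 lists of peaks of histone 3 phosphorylated at serine 10 (H3S10ph) from mouse gastrocnemius muscle. They are 10 of 21911 protein-coding genes, and every one of them is accounted for below. They were chosen from earlier results of the same lists, in which *Klf6* was known to hold peaks after stimulation, so all counts and levels here are descriptions without a test. The muscles came from male C57BL/6 mice at an age of 5 months, and the labels name no genetic change. The stimulated group are gastrocnemius muscles that performed 50 eccentric contractions, in which the muscle is lengthened while a tetanus is evoked, and that were taken immediately afterwards. The contractions were evoked electrically through the sciatic nerve, with 100 Hz for 600 ms every 30 s. By the paper's methods, the sciatic nerve was exposed, wires were implanted beside it and the common peroneal nerve was cut. The unstimulated group are the contralateral muscles of the same anaesthetized mice, which share the anaesthesia and the circulation with the stimulated leg. No such surgery is described for the contralateral leg, so effects of surgery and of contraction cannot be told apart. Each group holds 2 samples, and each sample is a pool of the muscles of 6 mice, so the spread between replicates is that between pools.

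Kruppel-like factors are zinc finger transcription factors that bind GC-rich and CACCC sequences in promoters and enhancers. Several are immediate early or hormone-induced genes, transcribed within a short time of a growth factor, an injury or a glucocorticoid signal, and others act as repressors at the same sites. In skeletal muscle *Klf15* is known as a glucocorticoid-induced regulator of amino acid and lipid metabolism. H3S10ph is a mark that kinases downstream of the MAP kinases place on the chromatin of early response genes, and it also marks condensed chromosomes of dividing cells. The comparison asks at which genes the mark was found after contraction but not at rest.

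The regions and promoters on which the account turns are shown here, from the mm10 genome (GRCm38.p6), in lower case with matches to CACCC or CCGCCC on either strand in capitals. The first pair are the only regions found where peaks of both stimulated lists overlapped and no unstimulated list had a peak. The search ran to 20 kb from each member, and to 200 kb from *Klf5* and *Klf6* only. The second pair are the bases before the starts of *Klf15* and *Klf11*, whose promoters lay in part or whole under a peak of stimulated replicate 2 (promoters from RefSeq on GRCm38.p6, cut before the annotated transcript). The last comes from the peak within 20 kb of a member that ranked best in stimulated replicate 1, upstream of *Klf10*, and holds tandem repeats.
Klf15 shared region, chr6:90482410-90482661, plus strand: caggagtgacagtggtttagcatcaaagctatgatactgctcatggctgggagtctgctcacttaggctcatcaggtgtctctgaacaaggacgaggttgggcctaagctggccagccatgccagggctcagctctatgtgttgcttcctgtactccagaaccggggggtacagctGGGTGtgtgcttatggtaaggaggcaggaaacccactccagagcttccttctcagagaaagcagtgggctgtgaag
Klf5 distal shared region, chr14:99501192-99501427, plus strand: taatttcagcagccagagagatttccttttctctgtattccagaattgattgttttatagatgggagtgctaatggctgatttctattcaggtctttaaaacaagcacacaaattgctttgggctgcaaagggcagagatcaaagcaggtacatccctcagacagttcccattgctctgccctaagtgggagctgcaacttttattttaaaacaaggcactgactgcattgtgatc
Klf15 sequence before the start, chr6:90462326-90462575, plus strand: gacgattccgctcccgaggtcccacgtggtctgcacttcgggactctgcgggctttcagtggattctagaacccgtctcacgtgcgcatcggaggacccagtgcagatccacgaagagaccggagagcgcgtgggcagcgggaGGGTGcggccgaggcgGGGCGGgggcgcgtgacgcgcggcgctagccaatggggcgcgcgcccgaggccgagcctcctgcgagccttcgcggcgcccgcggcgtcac
Klf11 sequence before the start, chr12:24651121-24651273, plus strand: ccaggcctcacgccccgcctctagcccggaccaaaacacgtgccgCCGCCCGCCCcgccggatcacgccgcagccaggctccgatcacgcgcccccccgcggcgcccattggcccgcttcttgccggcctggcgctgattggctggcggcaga
Klf10 upstream peak, central part, chr15:38308927-38309046, plus strand: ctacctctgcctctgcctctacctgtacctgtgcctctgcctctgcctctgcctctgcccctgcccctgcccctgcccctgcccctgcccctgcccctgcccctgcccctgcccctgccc
The *Klf15* shared region, of 252 bp and 54.4% GC, held 1 CACCC match. The *Klf5* shared region, of 236 bp and 41.5% GC, held none of the motifs searched. Of the windows of the same length at peaks of stimulated replicate 2, 39.0% and 37.1% held CACCC, so a match or its absence is common. Of the stretch printed before the start of *Klf15*, only the last 16 bases lay under the peak, and the capitals in it lie outside the peak. The *Klf10* stretch is a run of short C-rich repeats, and 87.8% of its whole peak is repeat-masked in the reference.

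Facts of the lists bear on every value. The unstimulated lists held 9094 and 32740 peaks and the stimulated lists 10901 and 40683, so replicate 2 of each group is the longer list. By the methods, replicates were down-sampled to the one with the fewest reads. A list holds no read counts, so the depth cannot be checked here, and a gene without a peak is a gene without a call. In whole muscle, fewer nuclei carrying the mark and less mark per nucleus cannot be told apart. The library of unstimulated replicate 1 stands apart, with 522 peaks on the X chromosome against 16 to 19 in the others and none on the Y against 6 or 7; no member lies on either. The weakest deposited peaks have a −log10 p near 2, whereas the methods name a cutoff that equals 3 on that scale. Among the peaks within 20 kb of the members, the highest −log10 q was 0.12, so each is a weak call by itself.

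More Kruppel-like factor genes held a peak in each stimulated list than in either unstimulated list. With a window of the gene body plus 20 kb on each side, unstimulated replicate 1 had a peak at 1 member (*Klf6*) and unstimulated replicate 2 at 3 (*Klf4*, *Klf11* and *Klf13*). Stimulated replicate 1 had a peak at 5 (*Klf2*, *Klf6*, *Klf10*, *Klf13* and *Klf15*), and stimulated replicate 2 at 9, all but *Klf4*. The groups did not overlap, with 2 ± 1.41 members (SD, n = 2) against 7 ± 2.83 (SD, n = 2). Over all protein-coding genes the shares with a peak were 19.4% and 57.5% in the unstimulated and 30.7% and 69.4% in the stimulated lists, which do overlap between the groups. Between lists of the same replicate number the share over all genes was higher in the stimulated list in both, as was the number of members. The share of members with a peak lay below that of all genes in both unstimulated lists and above it in both stimulated lists. An exact permutation test of 2 samples against 2 cannot go below p = 0.333, and none is given for genes chosen in this way.

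**Figure D1:**
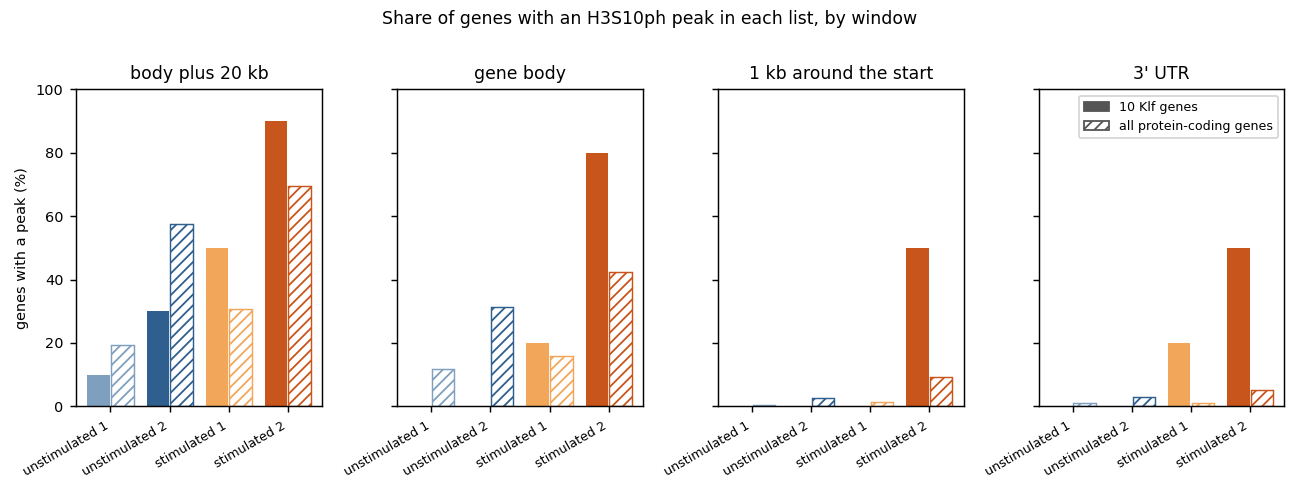
Share of the 10 *Klf* genes (filled bars) and of all protein-coding genes (hatched bars) with an H3S10ph peak in each of the 4 lists (x axis), in percent (y axis, from 0), for 4 windows around a gene. In the gene body, both unstimulated lists stand at 0 members while 11.9% and 31.2% of all genes held a peak.

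No member held a peak in its gene body in either unstimulated list, against 11.9% and 31.2% of all genes. In stimulated replicate 1 the bodies of *Klf6* and *Klf13* held one, which is close to the 16.0% of all genes, and in stimulated replicate 2 those of 8 members did, all but *Klf4* and *Klf5*, against 42.3%. The members are short genes, with a median of 12089.5 bp against 17433 bp, and a short gene has less room for a peak. Among the 15030 genes between 2624 and 52565 bp, the range of the members, the shares were 5.30% and 21.4% in the unstimulated lists and 9.03% and 34.2% in the stimulated lists. Only stimulated replicate 2 had peaks within 1 kb of a member's start, at *Klf3*, *Klf6*, *Klf9*, *Klf11* and *Klf15*. That is 5 of 10 members where 9.19% of all genes had one. The other lists had none at a member's start, against 0.392% and 2.54% of genes in the unstimulated lists and 1.41% in stimulated replicate 1.

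Some of the body peaks lay over the 3′ untranslated region (3′ UTR). Both body peaks of stimulated replicate 1 and 5 of the 15 of stimulated replicate 2 touched it, the latter in *Klf2*, *Klf6*, *Klf9*, *Klf10* and *Klf13*. Of the same 15 peaks, 5 lay in introns only and 4 touched the 5′ UTR. Over genes with an annotated 3′ UTR the shares were 0.980% and 2.99% in the unstimulated lists, with no member, and 1.14% and 5.11% in the stimulated lists. *Klf6* and *Klf13* had a 3′ UTR peak in each stimulated list and in no unstimulated one, as did 0.153% of genes. The members have long 3′ UTRs, with a median of 2722 bp against 951 bp over all genes. This window was chosen after the positions had been seen.

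The extent of the mark followed the same order. Of the 575618 bp of the 10 windows, peaks covered 515 and 1312 bp in the unstimulated lists and 3280 and 15141 bp in the stimulated lists. As shares these were 0.0895% and 0.228% against 0.570% and 2.63%. The windows of all genes were covered to 0.193% and 0.711% in the unstimulated and to 0.251% and 1.18% in the stimulated lists. Stimulated replicate 1, one of the short lists, thus covered more of the member windows than unstimulated replicate 2, while over all genes it covered less. The member windows held 2 and 4 peaks in the unstimulated and 6 and 27 in the stimulated lists. Their median widths were 258 and 308 bp against 614 and 402 bp, the whole lists having medians of 380, 418, 360 and 457 bp in the same order. No peak near a member was wider than 2000 bp, the widest within 20 kb having 1397 bp.

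By fold enrichment over the background, which ranks a peak within its own list, the member peaks lay throughout the lists. In the unstimulated lists they ranged from 2.21 to 2.38 and from 2.02 to 2.20, and their best ranks were 1665 of 9094 and 6515 of 32740. In the stimulated lists they ranged from 2.21 to 2.82 and from 2.01 to 2.75, with best ranks of 165 of 10901 (*Klf10*) and 125 of 40683 (*Klf15*). Above the median fold of their list lay 1 of 2, 2 of 4, 4 of 6 and 17 of 27 member peaks.

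**Figure D2:**
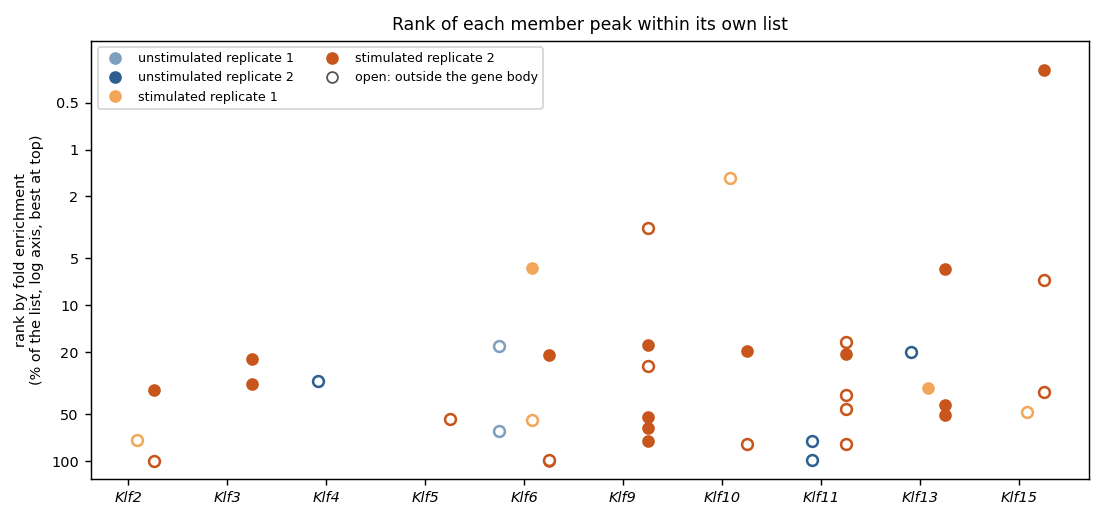
Rank by fold enrichment of each peak in the window of a *Klf* gene, as a percentage of the length of its own list (y axis, log scale, best ranks at the top), by gene (x axis) and list (colour); filled points overlap the gene body and open points lie in its flanks. The filled point of *Klf15* at the top is its start peak, at rank 125 of 40683.

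*Klf15*, on chromosome 6 (90462576 to 90475238, plus strand), was the only member at which the stimulated lists shared a position within 20 kb. Neither unstimulated list had a peak in its window. Stimulated replicate 1 had 1 peak there, of 761 bp (chr6:90481998-90482758), starting 6760 bp past the end of the gene, with a fold of 2.27 and rank 5292 of 10901. Stimulated replicate 2 had 3. A peak of 252 bp (chr6:90482410-90482661) lay wholly inside that of replicate 1, with a fold of 2.34 and rank 2789 of 40683. No annotated gene overlaps this region, whose sequence is printed above. Regions with overlapping peaks of both stimulated lists and no unstimulated peak numbered 306 in the genome, and 1.69% of genes had one in their window. Among the members *Klf15* was the only gene with one within 20 kb. The second peak of stimulated replicate 2 ran from 16 bp before to 306 bp after the start (chr6:90462560-90462882), over 150 bp of 5′ UTR and 157 bp of intron, with a fold of 2.75 and a −log10 p of 3.81. It was the member peak with the best rank in that list, and stimulated replicate 1 had no peak there. The third lay 4270 bp upstream, at rank 14571.

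*Klf6*, a factor induced early by injury and growth signals, lies on chromosome 13 (5861482 to 5870394, plus strand). The share of its body under peaks was 0% in both unstimulated lists, 2.82% in stimulated replicate 1 and 6.91% in stimulated replicate 2. In replicate 1 this was a 3′ UTR peak of 251 bp (chr13:5867438-5867688) with a fold of 2.60, a −log10 p of 3.41 and rank 629 of 10901. In replicate 2 it was a 3′ UTR peak of 397 bp (chr13:5868023-5868419) with a fold of 2.20 at rank 8502, and an intron peak of 219 bp near the bottom of the list, at rank 40400. The 3′ UTR peaks of the replicates lay 334 bp apart and did not overlap. Each stimulated list had a further peak downstream, 1755 bp and 8821 bp past the end. *Klf6* was also the only member with a peak within 20 kb in unstimulated replicate 1. That list had one 6255 bp upstream with a fold of 2.38 at rank 1665 and another 18170 bp upstream. The body held peaks in the stimulated lists only, and the upstream flank within 20 kb in unstimulated replicate 1 only.

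*Klf13*, a factor of the basic transcription element binding group, is the longest member (chromosome 7, 63886351 to 63938915, minus strand). Both stimulated lists had a peak in its 3′ UTR, of 937 bp in replicate 1 (chr7:63890140-63891076, fold 2.33, rank 3711) and of 446 bp in replicate 2 (chr7:63887375-63887820, fold 2.11, rank 17723). They lay 2319 bp apart. Stimulated replicate 2 had 2 intron peaks besides, the stronger with a fold of 2.36 at rank 2379. The unstimulated muscles had 1 peak, 17828 bp upstream in replicate 2, with a fold of 2.20 at rank 6515. *Klf6* and *Klf13* were the members with a body peak in both stimulated and neither unstimulated list, a pattern that 2.74% of genes had.

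*Klf10* and *Klf2* had peaks within 20 kb in the stimulated lists only, but at different places in each. With *Klf15* these 3 members compare with 5.74% of all genes, and no member had the opposite pattern, which 1.12% of genes had. *Klf10*, the TGF-β-inducible early gene, lies on chromosome 15 (38291463 to 38300706, minus strand). Stimulated replicate 1 had a peak of 773 bp upstream of it, 7894 bp from the start (chr15:38308600-38309372), with a fold of 2.82, a −log10 p of 4.00 and rank 165 of 10901. This is the repeat region shown above, and the part of the repeats in the call was not tested. Over the whole list of stimulated replicate 1, 24.1% of peaks had more masked than unmasked bases. Stimulated replicate 2 had a peak of 366 bp near the end of the gene (chr15:38292081-38292446), without masked bases, with a fold of 2.21 at rank 8004, and another 17875 bp upstream.

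*Klf2*, which maintains endothelial quiescence and responds to shear stress, is the shortest member (chromosome 8, 72319033 to 72321656, plus strand). Stimulated replicate 1 had a peak of 467 bp starting 19679 bp past the end, inside the gene *Eps15l1*, with a fold of 2.21 at rank 8001 of 10901. Stimulated replicate 2 had a peak of 1397 bp over the end of *Klf2* (chr8:72321528-72322924), with 129 bp in the 3′ UTR and the rest past the gene, at rank 14329 of 40683. Its other peak, 12541 bp past the end, was at rank 40490, among the weakest of the list. The replicates thus shared no position at *Klf2*, and the peak of replicate 1 was the one closest to the edge of the window. Just outside it, the nearest peaks of the genes followed further lay 28231 bp from *Klf5* and 28649 bp from *Klf6*.

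**Figure D3:**
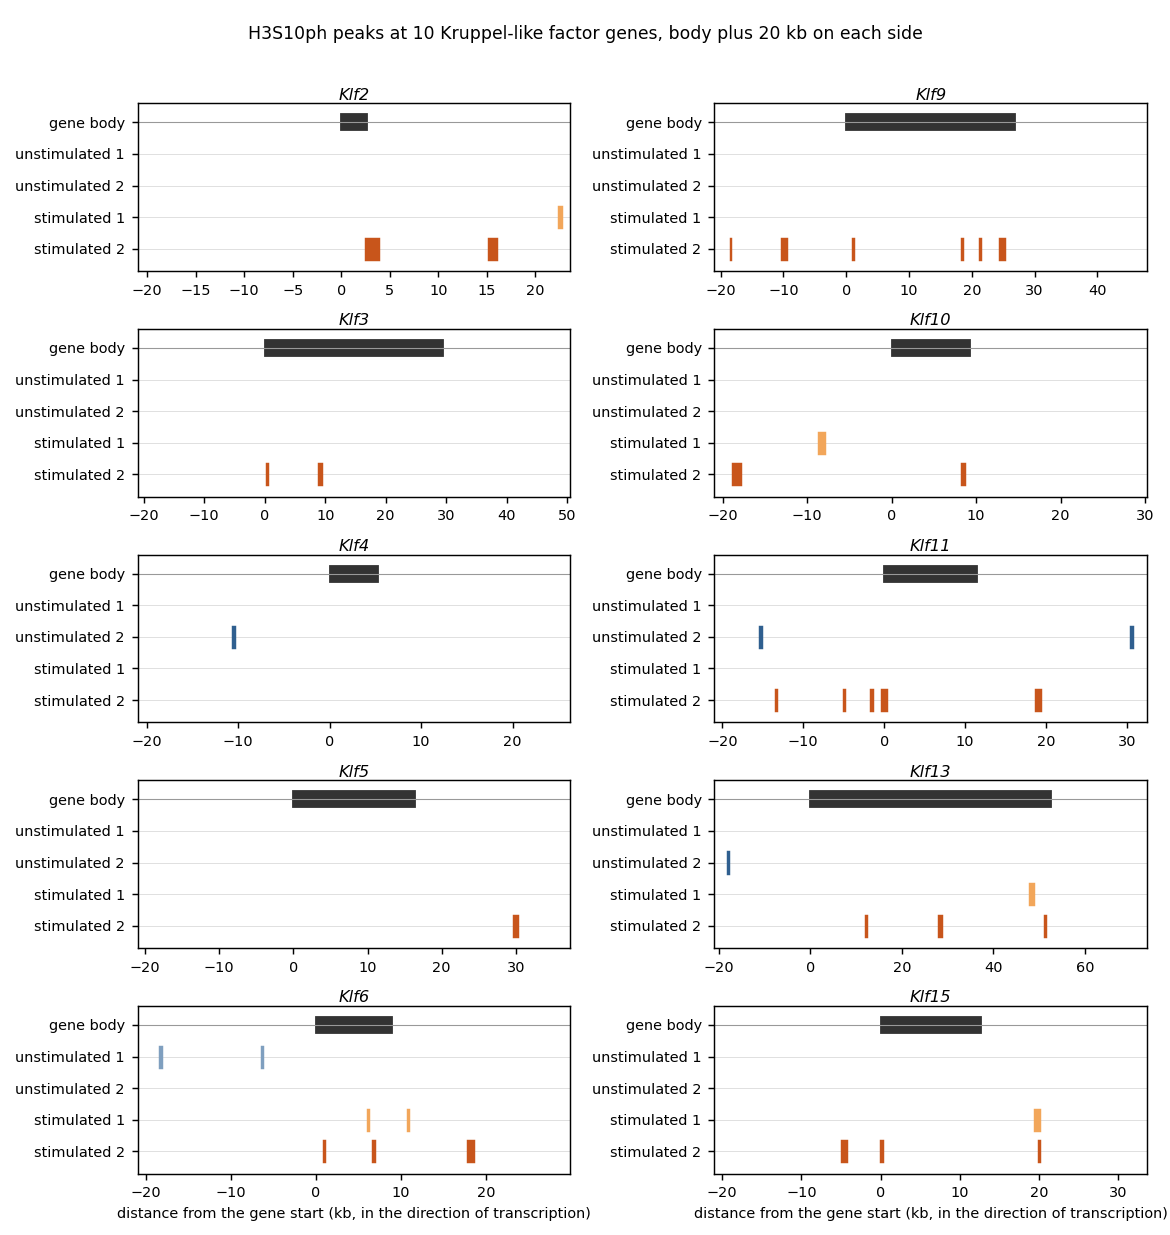
Positions of H3S10ph peaks around the 10 *Klf* genes, with the gene body in black and 1 row per list; the x axis is the distance in kb from the gene start in the direction of transcription, with 20 kb on each side of the body. Peaks of both stimulated lists line up only past the end of *Klf15*, and no unstimulated peak touches a gene body.

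*Klf9*, *Klf11* and *Klf3* had body peaks in stimulated replicate 2 only. *Klf9*, which glucocorticoids and thyroid hormone induce, had 6 peaks within 20 kb in that list and none within 20 kb in the other 3 lists. The strongest lay 9403 bp upstream (chr19:23130802-23131823), with a width of 1022 bp, a fold of 2.43, a −log10 p of 3 and rank 1306 of 40683. The other 5 included 4 in the body, the best of them over 69 bp of coding sequence and 239 bp of intron, 965 to 1272 bp from the start, at rank 7340.

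*Klf11*, another TGF-β-inducible factor, had 5 peaks in stimulated replicate 2. One of 733 bp spanned its start, from 391 bp before to 341 bp after it (chr12:24650883-24651615), with a fold of 2.20 at rank 8347. It covered the whole of the 300 bp promoter. Unstimulated replicate 2 had 2 peaks at the edges of the window, 15124 bp upstream at rank 24254 and 18911 bp downstream at rank 32102 of 32740. Each had a fold of 2.02, and rank 24254 is the best rank of a group of tied peaks. *Klf3*, a repressor that works with CtBP proteins, had peaks within 20 kb in stimulated replicate 2 alone. Of these 2 peaks, one lay 246 to 489 bp from the start at rank 8994 and one 8794 bp into the gene at rank 13012.

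*Klf4* and *Klf5* had no peak in the body in any list. *Klf4*, one of the pluripotency factors, was the only member without a peak within 20 kb in either stimulated list. Unstimulated replicate 2 had 1 peak there, of 256 bp, 10374 bp upstream, with a fold of 2.15 at rank 10030. *Klf5*, a factor of proliferating cells, had 1 peak within 20 kb, in stimulated replicate 2, 13291 bp past the end at rank 21843 of 40683.

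Around *Klf5* and *Klf6* peaks were followed out to 200 kb. *Klf5* had 3 and 10 peaks in the unstimulated and 4 and 11 in the stimulated lists, which overlap between the groups and differ by 1 peak within each replicate number. Its one region shared by the stimulated lists and free of unstimulated peaks lay 186156 bp past the end, outside any annotated gene, with folds of 2.56 in replicate 1 (rank 850 of 10901) and 2.37 in replicate 2 (rank 2107 of 40683). Unstimulated and stimulated replicate 2 shared positions too, 1 inside the neighbouring gene *Pibf1* and 1 upstream of *Klf5*. At the latter the unstimulated peak was 31382 bp from the gene, with a fold of 2.44 at rank 885 of 32740, and its stimulated partner was at rank 10542.

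*Klf6* had 4 and 8 peaks within 200 kb in the unstimulated and 5 and 16 in the stimulated lists, which overlap between the groups too. Stimulated and unstimulated peaks overlapped at 1 position, in replicate 2 of each, in the non-coding gene *Gm46401*, and no position was shared by the stimulated lists. Per 100 kb, the *Klf6* region held 0.978 and 1.96 peaks in the unstimulated and 1.22 and 3.91 in the stimulated lists. Chromosome 13 as a whole held 0.361, 1.34, 0.444 and 1.64 peaks per 100 kb in the same order. The *Klf6* region was thus denser in peaks than its chromosome in all 4 lists. The *Klf5* region was denser than its own chromosome in all 4 lists as well, so this does not set *Klf6* apart.

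**Figure D4:**
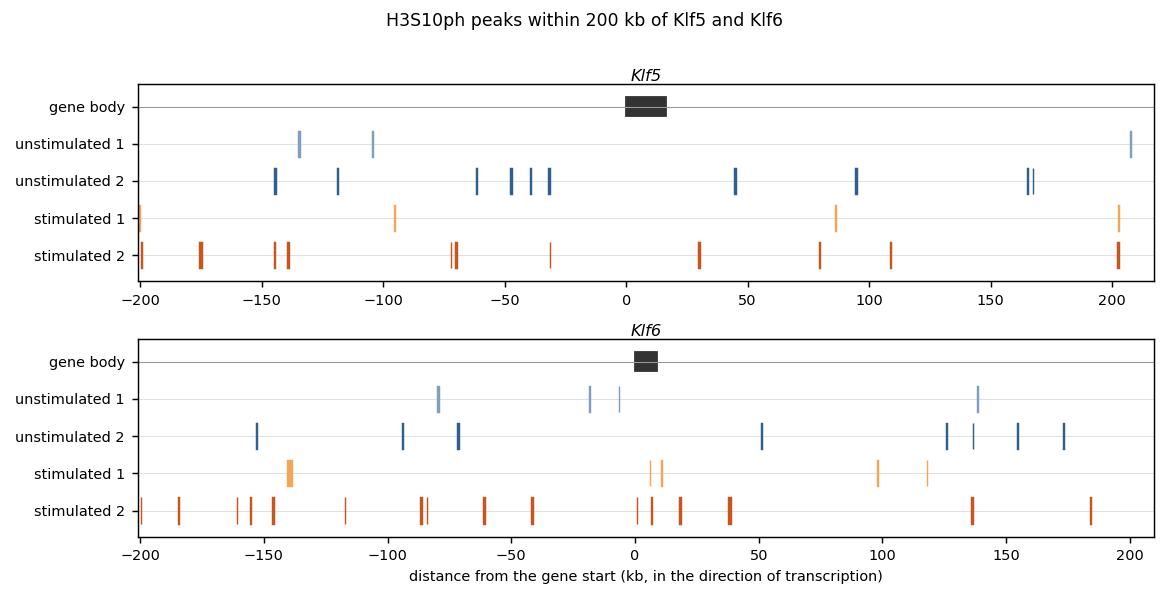
H3S10ph peaks within 200 kb of *Klf5* (top) and *Klf6* (bottom), with 1 row per list; the x axis is the distance in kb from the gene start in the direction of transcription. Around *Klf5* the 3, 10, 4 and 11 peaks of the lists show no separation of the groups.

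The separation of the groups depended on the window. Within 50 kb of the bodies, 2 and 8 members held a peak in the unstimulated and 7 and 9 in the stimulated lists, so the groups overlapped. At that distance *Klf3* held a peak in every list and *Klf4* held one in stimulated replicate 1. *Klf9* and *Klf10* then held one in unstimulated replicate 2 as well. It did not depend on the strength of the calls in the alternatives run. In these alternatives the shares of all genes did not overlap between the groups either. When each list was reduced to its 9094 strongest peaks by −log10 p, 1 and 1 members against 5 and 6 held a peak within 20 kb, where 19.4% and 24.5% of all genes did in the unstimulated and 26.3% and 31.2% in the stimulated lists. At a −log10 p of at least 3, no member did in the unstimulated lists, against 3.31% and 3.35% of genes. There stimulated replicate 1 kept *Klf6* and *Klf10* (6.76% of genes) and stimulated replicate 2 kept *Klf9* and *Klf15* (5.96% of genes), so no member passed it in both. No member had a start peak in both stimulated lists and in no unstimulated one, which 0.210% of genes had. Without unstimulated replicate 1 the members numbered 3 against 5 and 9, and *Klf6* joined *Klf2*, *Klf10* and *Klf15* among those with peaks in the stimulated lists only.

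The promoters of 8 members were found in the RefSeq table; those of *Klf5* and *Klf10* were not matched. They are GC-rich, with a median of 72.7% GC against 52.7% over 32851 promoters. The GC box CCGCCC was in 7 of the 8, against 35.7% of all promoters, and the CACCC site of Kruppel-like factors in 5, against 57.5%. The half-site TGACG, the core that CREB family factors bind, was in 6, against 20.8%. The AP-1 sites TGACTCA and TGAGTCA and the CArG box, the site of SRF, were in none of the 8, against 5.20% and 1.63%. Both strands were searched, and a match is not a bound site. Only the promoters of *Klf11* and *Klf15* lay under peaks, for 300 and 66 bp, in stimulated replicate 2. The member peaks were richer in GC than their lists in all but unstimulated replicate 1, with medians of 36.3% and 50.3% in the unstimulated and 51.7% and 49.1% in the stimulated lists against 38.0%, 43.9%, 44.5% and 44.5%; the part of GC content in the calls was not tested.

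The other genes of the family, 16 further KLF and SP factors, overlapped between the groups. Within 20 kb, 3 and 10 of them held a peak in the unstimulated and 8 and 12 in the stimulated lists. The shares of all genes were 19.4% and 57.5% against 30.7% and 69.4%. In the bodies the counts were 3 and 5 against 3 and 6, beside 11.9% and 31.2% against 16.0% and 42.3% of all genes. *Klf16* and *Sp1* had peaks within 20 kb in both stimulated and neither unstimulated list, as did 5.74% of all genes. The *Sp1* peak of stimulated replicate 1 had a fold of 3.01 at rank 55 of 10901 but lay 19222 bp from the gene. Of 15 regulators and partners of Kruppel-like factors, 7 and 9 against 11 and 13 held a peak within 20 kb, which do not overlap between the groups either, beside 19.4% and 57.5% against 30.7% and 69.4% of all genes. In their bodies the counts were 7 and 8 against 10 and 12, beside 11.9% and 31.2% against 16.0% and 42.3% of all genes. Gene length was not matched for this set. Of these 15, 2 had a peak in both stimulated lists alone, beside 5.74% of all genes: *Hdac1* and *Hdac2*, histone deacetylases of the Sin3 corepressor complex.

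Markers of the cells in muscle were counted in the same way. Their counts within 20 kb are to be read beside the shares of all genes, 19.4% and 57.5% in the unstimulated and 30.7% and 69.4% in the stimulated lists. Of 10 genes of fast muscle fibres, 3 and 10 held a peak within 20 kb in the unstimulated and 7 and 8 in the stimulated lists. Of 11 markers of endothelial cells, fibroblasts, leukocytes and satellite cells, 0 and 6 against 6 and 10 did. The 4 genes *Myf5*, *Cd68*, *Col1a1* and *Adgre1* had a peak in both stimulated lists alone, a pattern of 5.74% of all genes. In the bodies these 11 markers counted 0 and 4 against 1 and 7, and the fibre genes 3 and 9 against 7 and 6. The shares of all genes with a body peak were 11.9% and 31.2% against 16.0% and 42.3%. The part of other cells than fibres in the values of the Kruppel-like factor genes was not tested.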

How the data were processed

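H3S10ph ChIP-seq was analysed from 4 samples, 2 per group. According to the methods and the processing notes, the authors aligned reads to mm10 with BWA, filtered multi-mapping reads (bamtools 2.4.0), down-sampled the replicates and called broad peaks on each sample with MACS2 2.1.1 over input DNA. The deposited lists give a fold enrichment (a ratio to the background level) and −log10 p-values and q-values for every peak, but no counts.

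Genes were those of GENCODE release M21. A gene held a peak when at least 1 bp of a deposited peak overlapped its window. Ranks were by fold within a list, and tied peaks share the best rank. Counts are given beside those of all protein-coding genes. Python 3.11.15, numpy 2.4.6, pandas 2.3.3, samtools 1.23.1 and matplotlib 3.10.9 were used, and the overlap code was tested on simulated data.

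All 10 members are named, those with peaks in both stimulated lists in full, and of the other lists those genes with peaks in both lists of one group alone. The members and lists were chosen with earlier results of these data known. Alternatives were other windows and overlaps, stricter thresholds, lists of equal length, merged peaks, each replicate left out and a replicate block. The sequence and rank of 1 distal peak are not reported here. The other experiments of the study were not analysed here.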

Additional observations from a re-analysis of the deposited data

How the results depend on the processing

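The mean number of members with a peak was 5.00 higher in stimulated muscles and stayed higher under every alternative run, as did the covered length, 8297 bp higher. Leaving out 1 replicate gave 3 to 7 members and 2366 to 14228 bp, lowest without stimulated replicate 2. The 3 members with peaks in both stimulated and neither unstimulated list became 0 with 1 kb around the start and 0 with a −log10 p threshold of 3, and ranged from 3 to 6 when 1 replicate was left out, with 6 without stimulated replicate 1. The mean covered share of the *Klf6* body, 4.86 percentage points higher in stimulated muscles, was 2.82 to 6.91 points higher without 1 replicate. With −log10 p thresholds of 2.5 and 3 it was 1.41 points higher. There the share was 2.82% in stimulated replicate 1 and 0% in stimulated replicate 2, so that difference rests on 1 list. Peaks within 200 kb of *Klf5* and *Klf6* together, 5.50 more per stimulated list, turned to -3.50 without stimulated replicate 2 and came to 0 without unstimulated replicate 1, within a range of -3.50 to 14.5. The causes were not tested. With the 3′ UTR as window, added after the data had been seen, 3.50 more members held a peak and 2.00 did so in both stimulated lists alone. With the replicate number as a block the differences are 5.00 members and 8297 bp by construction. The numbers were not taken to pair the samples in the main comparison. Deviations between replicates correlated at 0.0578 over 21911 genes. A correlation of weak calls cannot show whether the pools of a replicate number came from the same mice. With 2 samples per group, lists of unequal length and no read counts, neither a missing peak nor a difference between single genes can be tested.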
